A study of Arabidopsis thaliana with 2 samples.

Results

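The proteasome loci were the genes of Arabidopsis thaliana whose deposited protein name contained the word proteasome, in any case. The rule found 41 of the 22937 loci in the table, after the reads of all transcripts of a gene had been summed. Loci were sorted by the wording of those names, save COP9 signalosome subunits, which were placed by symbol. Of the 41 loci, 18 encoded the core particle (11 alpha and 7 beta subunits), 7 encoded the regulatory particle, and 16 were placed outside both. Those 16 were assembly factors, an alternative activator, an inhibitor-related protein, COP9 signalosome subunits and loci with only a general family or domain name. Such a general name does not say whether the protein belongs to the regulatory particle, so subunits of it may be among them.

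RNA of the root tip of the primary root was sequenced from atphb3, a mutant whose name points to the mitochondrial membrane protein PHB3, a prohibitin, and from Col, the wild-type accession. There was 1 library of each kind and no replicate, so no spread between plants could be measured and no test was run. Seeds of both were kept cold for 3 days on Murashige and Skoog medium, then moved to 20 °C under days of 16 h light and nights of 8 h. The labels named no allele, seedling age or pooling of plants, they carried a number whose meaning they did not give, and the extraction protocol also spoke of shoots.

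The proteasome is the large protease that breaks down proteins tagged with ubiquitin. Its core is a barrel of alpha rings on the outside and beta rings on the inside, and some of the beta subunits carry the proteolytic sites. The regulatory particle caps the barrel: a ring of AAA-ATPases unfolds the substrate, and non-ATPase subunits bind it and remove its ubiquitin. In Arabidopsis many subunits are encoded by pairs of similar genes.

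The library labelled atphb3 held 7384348 reads on transcripts, and Col held 7451022. Levels are given as CPM, reads scaled to these totals, and 1 read equalled 0.135 CPM in the library labelled atphb3 and 0.134 CPM in Col. Loci that reached 50 reads in either library are called measured, which 12931 did. Every ratio below is CPM in the library labelled atphb3 over CPM in Col, with its 95% exact binomial (Clopper-Pearson) interval in brackets. Such an interval covers counting error only and compares these libraries, not the genotypes. PHB3 itself had 863 reads in the library labelled atphb3 and 915 reads in Col, a ratio of 0.952 (0.866 to 1.05). Its level gave no check of the label, so the library is named by its label throughout. Root tip genes were read in both libraries, among them the quiescent centre gene WOX5 with 82 reads in the library labelled atphb3 and 24 reads in Col.

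Proteasome mRNA was higher in the library labelled atphb3, and the difference was larger for the core loci than for the 7 regulatory loci found by name. Regulatory non-ATPases listed under other names, described below, stood at the ratio of the core. The 18 core loci together took 1649 CPM (12177 reads) in the library labelled atphb3 and 1164 CPM (8670 reads) in Col, a ratio of 1.42 (1.38 to 1.46). The 7 regulatory loci took 1294 CPM (9554 reads) in the library labelled atphb3 and 1085 CPM (8085 reads) in Col, a ratio of 1.19 (1.16 to 1.23). The counting intervals of both particle sums did not overlap. These sums use no filter on low reads and hold every locus placed in each particle.

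**Figure D1:**
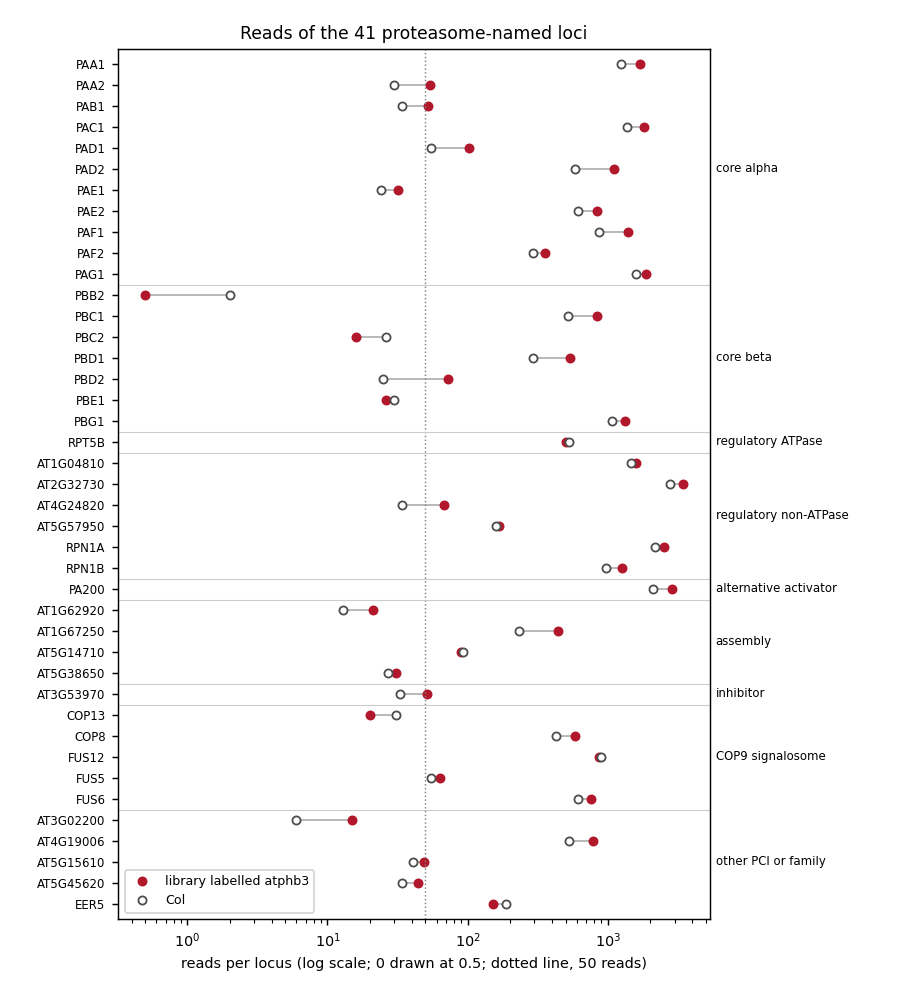
Reads of each of the 41 proteasome loci in the library labelled atphb3 (filled) and in Col (open), on a log axis, grouped by class, with the minimum of 50 reads as a dotted line. Most loci above the line lie further right in the library labelled atphb3, and several core loci lie below the line in both libraries.

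Locus by locus, all 14 measured core loci were higher in the library labelled atphb3, with log2 ratios of 0.26 to 1.52 and a median of 0.65. Of all 12931 measured loci, 54.6% were higher there, and their median log2 ratio was 0.08. At least 1.5-fold higher were 8 of the 14 measured core loci and 1 of the 7 measured regulatory loci, against 22.0% of all measured loci. At least 2-fold higher were 1 core and 1 regulatory locus, against 9.77% of all measured loci. Lower by at least 1.5-fold or 2-fold were 0 core and 0 regulatory loci, against 18.4% and 10.2% of all measured loci. The counting interval lay wholly above 1 for 13 core loci and 5 regulatory loci, against 37.7% of all measured loci, and wholly below 1 for 0 of either, against 30.1%. The median log2 ratio of the 7 regulatory loci was 0.24.

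The minimum of 50 reads could be met through either library, and 4 of these loci met it through the library labelled atphb3 alone: PAA2, PAB1, PBD2 and AT4G24820. Such a locus was bound to be higher there, and no proteasome locus met the minimum through Col alone. Among loci with 50 reads in both libraries, 11 of 11 core loci were higher and 5 by at least 1.5-fold, with a median log2 ratio of 0.48. Of the 6 regulatory loci with 50 reads in both, 5 were higher and 0 by at least 1.5-fold, with a median of 0.18. Of all 11194 loci with 50 reads in both, 55.0% were higher, 18.9% were at least 1.5-fold higher, and the median was 0.07.

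**Figure D2:**
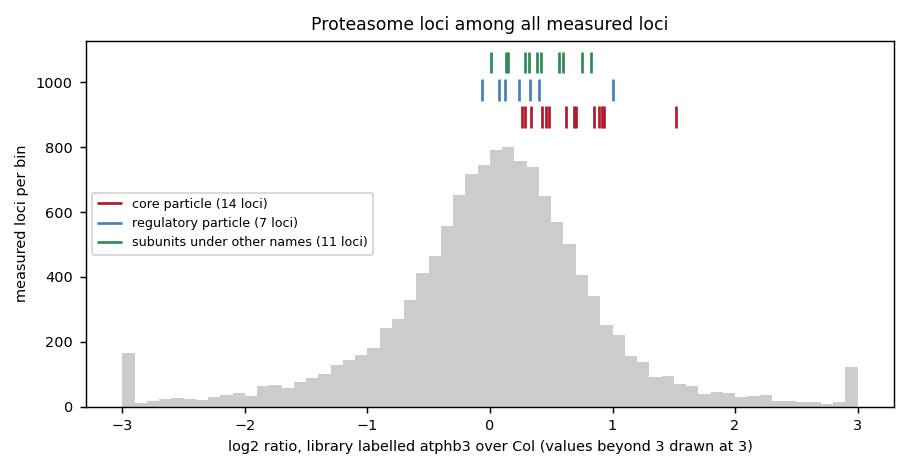
Log2 ratio, library labelled atphb3 over Col, of all 12931 measured loci (grey histogram) with a tick for each measured core locus, regulatory locus and subunit listed under another name. The core ticks run from 0.26 to 1.52, all to the right of the histogram's median of 0.08, and the regulatory ticks begin at -0.07.

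The promoters are shown because the members of each particle differed between the libraries mostly in the same direction. The letters TGGGC have been described in promoters of Arabidopsis proteasome genes, and NAC053 and NAC078, transcription factors that induce these genes when the proteasome is impaired, bind there. Of the 250 bases before the RefSeq gene start (build TAIR10.1), TGGGC stood on either strand in 8 of 18 core promoters (44.4%), 4 of 7 regulatory promoters (57.1%) and 5 of 16 promoters of the loci outside both (31.2%). It stood in 22.7% of all 27443 protein-coding promoters and in 26.0% of those of measured loci. Capitals mark TGGGC or its reverse complement in 4 promoters, each written 5′ to 3′ on the strand of its gene: those of 2 loci far apart between the libraries, of the locus with the most matches, and of the regulatory locus that was not higher.
PAD2 (AT5G66140, alpha subunit, chr5:26438772-26439021, minus strand): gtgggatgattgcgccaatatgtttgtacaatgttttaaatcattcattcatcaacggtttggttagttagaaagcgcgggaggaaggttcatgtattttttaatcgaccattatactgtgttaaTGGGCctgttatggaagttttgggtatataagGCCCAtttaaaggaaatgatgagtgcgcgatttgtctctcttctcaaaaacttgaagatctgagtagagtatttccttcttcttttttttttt
AT1G67250 (UMP1-type maturation factor, chr1:25165057-25165306, minus strand): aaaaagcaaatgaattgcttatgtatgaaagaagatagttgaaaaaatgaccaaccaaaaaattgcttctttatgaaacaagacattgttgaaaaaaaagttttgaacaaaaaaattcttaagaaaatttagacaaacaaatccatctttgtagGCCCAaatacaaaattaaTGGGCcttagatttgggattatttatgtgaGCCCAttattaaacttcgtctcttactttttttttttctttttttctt
RPN1B (AT4G28470, regulatory non-ATPase, chr4:14072583-14072832, minus strand): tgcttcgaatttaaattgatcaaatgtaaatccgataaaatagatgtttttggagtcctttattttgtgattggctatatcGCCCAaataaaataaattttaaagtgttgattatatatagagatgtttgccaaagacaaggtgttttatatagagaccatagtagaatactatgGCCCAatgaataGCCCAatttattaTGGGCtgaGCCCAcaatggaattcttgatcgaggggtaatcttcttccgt
RPT5B (AT1G09100, regulatory ATPase, chr1:2939364-2939613, minus strand): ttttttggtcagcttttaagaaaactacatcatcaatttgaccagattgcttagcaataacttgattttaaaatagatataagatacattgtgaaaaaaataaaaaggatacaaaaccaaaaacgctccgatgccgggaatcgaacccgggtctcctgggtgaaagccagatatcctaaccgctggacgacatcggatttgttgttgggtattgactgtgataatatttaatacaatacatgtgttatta

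The PAD2 promoter held 2 matches, that of AT1G67250 held 3, that of RPN1B held 5 and that of RPT5B held 0. Among core and regulatory loci with 50 reads in both libraries, the 10 with TGGGC had log2 ratios of 0.07 to 0.93 with a median of 0.37, and the 7 without it had log2 ratios of -0.07 to 0.71 with a median of 0.46. The longer forms TGGGCC and TGGGCT, which contain TGGGC, each stood in 5 of 18 core promoters (27.8%), against 13.7% and 12.3% of all promoters. The telo-box letters AAACCCTA, frequent before genes of translation and cell growth, stood in 0 core promoters and in 1 regulatory promoter, against 4.49% of all promoters. The mitochondrial dysfunction motif, described before plant genes that respond to impaired mitochondria, stood in the promoter of 0 of the 41 loci, against 1.75% of all promoters. A match of these letters is a description of the window and not of binding.

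The alpha subunits form the outer rings of the core and its gate. Their 11 loci together took 1267 CPM in the library labelled atphb3 and 900.3 CPM in Col, a ratio of 1.41 (1.36 to 1.45). All 10 measured alpha loci were higher in the library labelled atphb3, with log2 ratios of 0.26 to 0.93, and 5 were at least 1.5-fold higher. With 50 reads in both libraries, 8 of 8 were higher and 3 by at least 1.5-fold, against 55.0% and 18.9% of all such loci.

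PAD2 (AT5G66140, chromosome 5, 26437170 to 26438764, minus strand) was furthest apart among the well read alpha genes. It had 1101 reads in the library labelled atphb3 and 581 reads in Col, a ratio of 1.91 (1.73 to 2.12). Its end overlaps AT5G66130 by 53 bases, a locus with 153 reads in the library labelled atphb3 and 87 reads in Col. PAF1 (AT5G42790, chromosome 5, 17159044 to 17161070, minus strand) had 1387 reads in the library labelled atphb3 and 870 reads in Col, a ratio of 1.61 (1.48 to 1.75). PAA1 (AT5G35590) had 1713 reads in the library labelled atphb3 and 1238 reads in Col, a ratio of 1.40 (1.30 to 1.5). These genes were higher in the library labelled atphb3 by far more than counting error.

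The alpha genes at the highest level per transcript length were among the closest between the libraries. On the RPKM scale, which divides reads by transcript length and library total, PAG1 (AT2G27020) stood at 247 in the library labelled atphb3 and 206 in Col, with a ratio of 1.20 (1.12 to 1.28) on 1890 reads in the library labelled atphb3 and 1591 reads in Col. PAC1 (AT3G22110) stood at 238 RPKM in the library labelled atphb3 and 177 RPKM in Col, with a ratio of 1.34 (1.25 to 1.44). Both lie in the outer ring, each encoded by a locus with no partner gene among the loci found. PAE2 (AT3G14290) had 840 reads in the library labelled atphb3 and 618 reads in Col, a ratio of 1.37 (1.23 to 1.52). PAB1 (AT1G16470), with 52 reads in the library labelled atphb3 and 34 reads in Col, had an interval that included 1 (0.983 to 2.45).

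The beta subunits form the inner rings. Their 7 loci together took 382 CPM in the library labelled atphb3 and 263 CPM in Col, a ratio of 1.45 (1.37 to 1.54). The 4 measured beta loci were all higher in the library labelled atphb3, and 3 were at least 1.5-fold higher. With 50 reads in both libraries, 3 of 3 were higher and 2 by at least 1.5-fold, against 55.0% and 18.9% of all such loci. PBC1 (AT1G21720, chromosome 1, 7626283 to 7628262, plus strand) had 839 reads in the library labelled atphb3 and 519 reads in Col, a ratio of 1.63 (1.46 to 1.82). PBG1 (AT1G56450) had 1334 reads in the library labelled atphb3 and 1069 reads in Col, a ratio of 1.26 (1.16 to 1.37). PBG1 was the most read beta locus and had the lowest ratio of the 4.

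PBD1 (AT3G22630, chromosome 3, 8009540 to 8010844, minus strand) had 535 reads in the library labelled atphb3 and 291 reads in Col, a ratio of 1.86 (1.61 to 2.15). This value is uncertain. The gene overlaps AT3G22620 by 51 bases, and that locus had 6550 reads in the library labelled atphb3 and 1995 reads in Col, with no strand-marking kit named in the protocols. Without the core loci that overlap another listed locus, PAD2, PBD1 and PBB2, the core sum gave a ratio of 1.36. PBD2 (AT4G14800), with 72 reads in the library labelled atphb3 and 25 reads in Col, had the highest ratio of all measured proteasome loci, 2.91 (1.82 to 4.78).

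The beta genes found here that are known to carry proteolytic sites were barely read in either library. No partner gene of PBB2 or PBE1 was among the loci found, so the reads of these subunits as a whole are not known. PBE1 (AT1G13060) had 26 reads in the library labelled atphb3 and 30 reads in Col. PBB2 (AT5G40580) was listed at 0 reads in the library labelled atphb3, where up to 3 reads would be compatible with that count, and had 2 reads in Col. PBA1 (AT4G31300), whose deposited name lacks the word proteasome, had 4 reads in the library labelled atphb3 and 0 reads in Col. Every working proteasome needs such subunits, and these counts are given only as the values listed. All of these loci have several RefSeq transcripts: PBE1 has 3, PBB2 has 4 and PBA1 has 3.

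The same split ran through the proteasome loci as a whole. The 14 core and regulatory loci with 1 RefSeq transcript had a median of 1304 reads in the library labelled atphb3 and 922 reads in Col, and all were measured. The 11 with several RefSeq transcripts had a median of 54.0 reads in the library labelled atphb3 and 30.0 reads in Col, and 7 were measured. Over all loci the medians were 126 reads in the library labelled atphb3 and 123 reads in Col with 1 RefSeq transcript, and 30.0 reads in the library labelled atphb3 and 31 reads in Col with several. The sources used here do not say how reads that match several transcripts were counted, and the part of this in the ratios was not tested. Among the 14 loci with 1 RefSeq transcript, 13 were higher in the library labelled atphb3, 4 were at least 1.5-fold higher (28.6%), and the median log2 ratio was 0.41. Of the 8326 measured loci of all kinds with 1 RefSeq transcript, 56.3% were higher, 23.2% were at least 1.5-fold higher, and the median was 0.10. The share past 1.5-fold was thus near that of other loci when both particles were pooled. By particle, it was 4 of 9 core loci and 0 of 5 regulatory loci. The core sum over loci with 1 RefSeq transcript gave a ratio of 1.46.

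**Figure D3:**
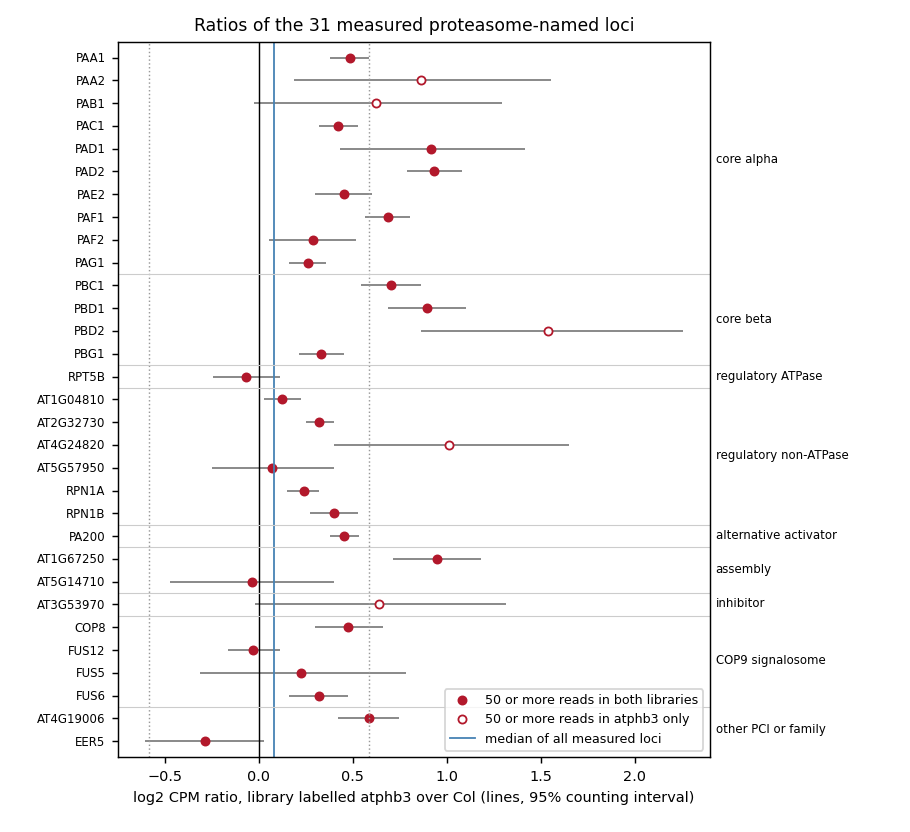
Log2 ratio, library labelled atphb3 over Col, of the 31 measured proteasome loci, with lines for the 95% counting interval, open circles for loci with 50 reads in the library labelled atphb3 only, a blue line at the median of all measured loci (0.08) and dotted lines at 1.5-fold. All alpha and beta loci lie to the right of the blue line, and the widest intervals belong to loci with few reads such as PBD2.

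Subunits encoded by a pair of genes allowed the sum of the pair to be set beside each gene. PAD2 and PAD1 (AT3G51260), with coding sequences 84.7% identical, together gave a ratio of 1.91 (1.73 to 2.11), and PAD1 had 103 reads in the library labelled atphb3 and 55 reads in Col, a ratio of 1.89. The less read gene PAD1 held 8.55% of the pair's reads in the library labelled atphb3 and 8.65% in Col. Both genes of this pair stood at nearly the same ratio.

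PAF1 and PAF2 (AT1G47250), each with 1 RefSeq transcript and 83.6% identical in coding sequence, differed more. PAF2 had 356 reads in the library labelled atphb3 and 295 reads in Col, a ratio of 1.22 (1.04 to 1.43), below the interval of PAF1 (1.48 to 1.75). PAF2 held 20.4% of the pair's reads in the library labelled atphb3 and 25.3% in Col, and the pair together gave 1.51 (1.40 to 1.63).

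In the other core pairs the less read gene had few reads. PAA1 and PAA2 (AT2G05840), 86.5% identical, together gave 1.41 (1.31 to 1.51), with 54 reads of PAA2 in the library labelled atphb3 and 30 in Col. PAE2 and PAE1 (AT1G53850), 88.1% identical, together gave 1.37 (1.24 to 1.52), with 32 reads of PAE1 in the library labelled atphb3 and 24 in Col. PBC1 and PBC2 (AT1G77440), 86.5% identical, together gave 1.58 (1.42 to 1.77), although PBC2 alone had 16 reads in the library labelled atphb3 and 26 reads in Col. PBD1 and PBD2, 76.8% identical, together gave 1.94 (1.69 to 2.23). In all of these pairs the less read gene has several RefSeq transcripts and the more read gene has 1. Reads shared by such similar genes could be split between them in ways not given here, so the split within a pair is less certain than its sum.

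**Figure D4:**
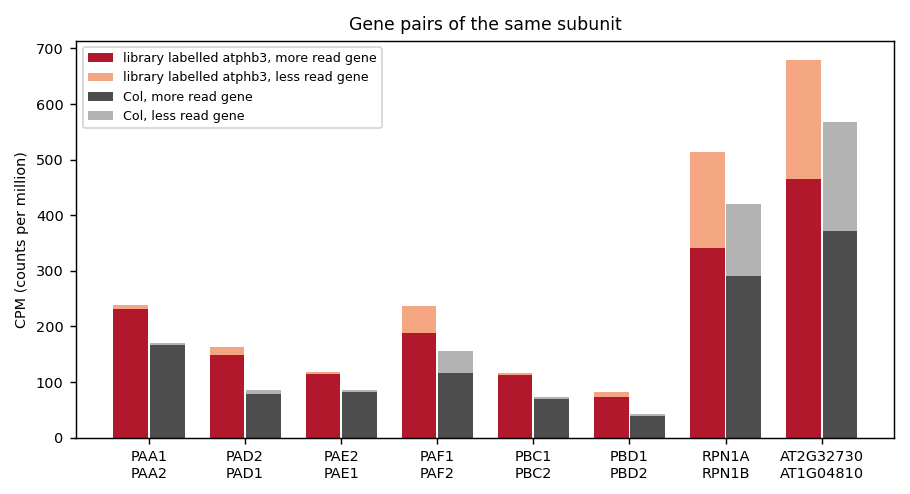
CPM of each pair of genes for the same subunit, stacked, with the more read gene at the bottom, for the library labelled atphb3 (left bar of each pair) and Col (right bar). Every left bar is taller than its right bar, from a pair ratio of 1.20 for AT2G32730 and AT1G04810 to 1.94 for PBD1 and PBD2.

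The regulatory particle loci named by the rule were 1 ATPase and 6 non-ATPases, and all 7 were measured. RPN1A and RPN1B encode a large scaffold subunit at the base of the particle, which docks ubiquitin receptors. RPN1A (AT2G20580) had 2524 reads in the library labelled atphb3 and 2162 reads in Col, a ratio of 1.18 (1.11 to 1.25). RPN1B (AT4G28470, chromosome 4, 14066875 to 14072545, minus strand) had 1274 reads in the library labelled atphb3 and 974 reads in Col, a ratio of 1.32 (1.21 to 1.44). The pair, 86.3% identical, together gave 1.22 (1.17 to 1.28), and RPN1B held 33.5% of its reads in the library labelled atphb3 and 31.1% in Col.

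The Rpn2 scaffold subunit was also encoded by a pair, 85.8% identical. AT2G32730 had 3440 reads in the library labelled atphb3 and 2766 reads in Col, a ratio of 1.25 (1.19 to 1.32), the most reads of all 41 loci. AT1G04810 had 1581 reads in the library labelled atphb3 and 1461 reads in Col, a ratio of 1.09 (1.02 to 1.17). The pair together gave 1.20 (1.15 to 1.25). Both scaffold pairs were thus higher in the library labelled atphb3 by a smaller factor than any core pair.

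RPT5B (AT1G09100, chromosome 1, 2936528 to 2939326, minus strand), an ATPase of the unfolding ring, was the 1 regulatory locus that was not higher. It had 500 reads in the library labelled atphb3 and 528 reads in Col, a ratio of 0.956 with an interval that included 1 (0.844 to 1.08). AT5G57950, named as a putative regulatory subunit, had 167 reads in the library labelled atphb3 and 160 reads in Col, a ratio of 1.05 (0.843 to 1.32). AT4G24820, an Rpn7-type subunit of the lid, had the highest ratio of the particle, 2.02 (1.32 to 3.14), on 68 reads in the library labelled atphb3 and 34 reads in Col. It has 2 RefSeq transcripts and is the regulatory locus measured through the library labelled atphb3 alone.

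Many subunits, most of them regulatory, carry deposited names without the word proteasome, so the 7 regulatory loci are only a part of their particle. A rule added after values had been seen took loci by subunit symbol and found 16: 7 ATPases, 7 non-ATPases and the core genes PBA1 and PBF1. Of these, 11 were measured, all of them regulatory. The rule missed subunits that have no symbol in the sources used here. All 11 were higher in the library labelled atphb3 when scaled to the library total, but RPT2a, with 2162 reads there and 2166 reads in Col and a ratio of 1.01 (0.948 to 1.07), turned lower under TMM and median of ratios scaling. At least 1.5-fold higher were 3 of the 11 (27.3%), near the 22.0% of all measured loci, and under TMM scaling 2 (18.2%) were, against 19.3%. The summed ratio of the 16 was 1.27 (1.24 to 1.30).

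The ATPases among them gave a ratio of 1.22 (1.19 to 1.25), close to that of the regulatory loci found by name. RPT4A had 889 reads in the library labelled atphb3 and 608 reads in Col, a ratio of 1.48 (1.33 to 1.64), the highest of the 7 ATPases. RPT5A, the partner gene of RPT5B, had 2611 reads in the library labelled atphb3 and 2116 reads in Col, a ratio of 1.25 (1.18 to 1.32), above the interval of RPT5B. The non-ATPases gave a ratio of 1.42 (1.36 to 1.48), the same as the core sum. Their 4 measured loci, which all met the read minimum in both libraries, had a median log2 ratio of 0.67. The core median was 0.65 over all measured core loci and 0.48 over the 11 that met the minimum in both. The smaller difference thus did not hold for every part of the regulatory particle. RPN12a, a lid subunit, had 1684 reads in the library labelled atphb3 and 962 reads in Col, a ratio of 1.77 (1.63 to 1.91), and ATS9 (AT1G29150), a non-ATPase subunit, had 2097 reads in the library labelled atphb3 and 1396 reads in Col, a ratio of 1.52 (1.42 to 1.62). RPN10, a ubiquitin receptor, had 1622 reads in the library labelled atphb3 and 1494 reads in Col, a ratio of 1.10 (1.02 to 1.18). With the 7 ATPases and 7 non-ATPases added, the regulatory sum gave 1.24 (1.22 to 1.26), still below the interval of the core sum (1.38 to 1.46). The log2 ratios of RPN12a (0.82) and ATS9 (0.60) lay within the range of the measured core loci.

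Of the 16 loci outside both particles, 10 were measured, 7 were higher in the library labelled atphb3, and 3 were at least 1.5-fold higher, against 54.6% and 22.0% of all measured loci. AT3G53970, counted in both, was measured through the library labelled atphb3 alone and so was bound to be higher. With 50 reads in both libraries, 6 of 9 were higher and 2 by at least 1.5-fold, against 55.0% and 18.9% of all such loci. Under TMM scaling 1 of the 10 measured loci was past 1.5-fold, AT1G67250, against 19.3% of all measured loci, so the counts were near or below those of other loci. The sum of the 16 loci gave a ratio of 1.30 (1.25 to 1.35).

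UMP1 is the maturation factor that is enclosed in the core during its assembly and is the first protein it degrades. The UMP1-type locus AT1G67250 (chromosome 1, 25163642 to 25165056, minus strand) had 443 reads in the library labelled atphb3 and 232 reads in Col, a ratio of 1.93 (1.64 to 2.27). The other UMP1-type loci had few reads, with 31 for AT5G38650 and 21 for AT1G62920 in the library labelled atphb3, against 27 and 13 in Col. AT5G14710, described by an assembly chaperone domain, had 89 reads in the library labelled atphb3 and 92 reads in Col, a ratio of 0.976 (0.721 to 1.32), and its span overlaps AT5G14720 by 75 bases.

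PA200 (AT3G13330, chromosome 3, 4319647 to 4330061, minus strand), an activator that caps the core in place of the regulatory particle, had 2885 reads in the library labelled atphb3 and 2118 reads in Col, a ratio of 1.37 (1.30 to 1.45). The inhibitor-related locus AT3G53970 had 51 reads in the library labelled atphb3 and 33 reads in Col, with an interval that included 1 (0.987 to 2.49). AT4G19006, named for its PCI domain, a fold shared by scaffold subunits of the lid and related complexes, had 782 reads in the library labelled atphb3 and 525 reads in Col, a ratio of 1.5 (1.34 to 1.68). EER5, linked to nuclear export of mRNA, had 152 reads in the library labelled atphb3 and 187 reads in Col, a ratio of 0.820 (0.658 to 1.02), the lowest of the measured proteasome loci. The PCI loci AT5G15610, AT5G45620 and AT3G02200 had 49, 44 and 15 reads in the library labelled atphb3, against 41, 34 and 6 in Col, and were not measured.

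The COP9 signalosome, a relative of the lid that removes NEDD8 from cullin ligases, contributed 5 loci, 4 of them named for the PCI domain. The 5 gave a summed ratio of 1.15 (1.08 to 1.22). At least 1.5-fold apart were 0 of the 4 measured ones, while 22.0% of all measured loci were higher and 18.4% lower by that much. COP8 (CSN4) had 587 reads in the library labelled atphb3 and 425 reads in Col, a ratio of 1.39 (1.23 to 1.58). FUS6 (CSN1) has the same deposited name as the regulatory locus AT4G24820 and was placed here by its symbol. It had 757 reads in the library labelled atphb3 and 612 reads in Col, a ratio of 1.25 (1.12 to 1.39). FUS12 (CSN2), with 871 reads in the library labelled atphb3 and 897 reads in Col, had a ratio of 0.980 (0.892 to 1.08), and its interval lay below that of COP8. FUS5 (CSN7) had 64 reads in the library labelled atphb3 and 55 in Col, and COP13 (CSN3), which was not measured, had 20 reads in the library labelled atphb3 and 31 in Col.

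Genes that act before and beside the proteasome stood at varied ratios. NAC053 had 960 reads in the library labelled atphb3 and 1879 reads in Col, a ratio of 0.516 (0.476 to 0.558), while NAC078 had 969 reads in the library labelled atphb3 and 1022 reads in Col, a ratio of 0.957 (0.875 to 1.05). Neither of these factors was higher in the library labelled atphb3. Polyubiquitin genes had a summed ratio of 0.997 (0.938 to 1.06), with UBQ3 at 0.657 and UBQ11 at 1.45. UBA1, which activates ubiquitin, stood at 1.17 (1.12 to 1.23).

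Of the 11 measured ubiquitin-conjugating enzymes 5 were higher, 1 was at least 1.5-fold higher (UBC20, at 1.59) and the median log2 ratio was -0.04. Of the 4 measured cullin ligase core genes 1 was higher, with a median of -0.12. Of the 5 measured shuttle proteins, which carry ubiquitylated substrates to the proteasome, 4 were higher, and NUB1 stood at 0.655 (0.527 to 0.811). CDC48 and its cofactors, which pull substrates out of complexes, had a summed ratio of 1.01 (0.988 to 1.04), with PUX4 at 1.98 and PUX2 at 0.676. Of the 6 measured deubiquitylases 5 were higher and 0 were at least 1.5-fold apart, with a median of 0.33. For comparison, the share higher was 54.6% over all measured loci, with a median of 0.08. Past 1.5-fold lay 22.0% of them on the higher side and 18.4% on the lower side. Lists this small were not tested against these shares.

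The other PCI complexes were also mostly higher. The 4 measured COP9 subunits whose names lack the word proteasome were all higher in the library labelled atphb3, against 54.6% of all measured loci. Their median log2 ratio was 0.42, with CSN8 at 1.48 (1.27 to 1.72), beside a median of 0.27 for the 4 measured COP9 loci found by name. The 6 measured subunits of translation initiation factor eIF3 were all higher, and 3 were at least 1.5-fold higher (2 under TMM scaling). Of all measured loci 54.6% were higher and 22.0% at least 1.5-fold higher (19.3% under TMM scaling). Their median was 0.57, with EIF3F at 1.88 (1.72 to 2.06). Autophagy genes, which serve the other bulk route of protein breakdown, had a median of -0.37. Of the 11 measured, 3 were higher and 2 were at least 1.5-fold lower (against 18.4% of all measured loci, a like share). NBR1, an autophagy receptor for ubiquitylated cargo, had 3426 reads in the library labelled atphb3 and 5954 reads in Col, a ratio of 0.581 (0.557 to 0.606). The lists describe these libraries and none of them was tested.

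**Figure D5:**
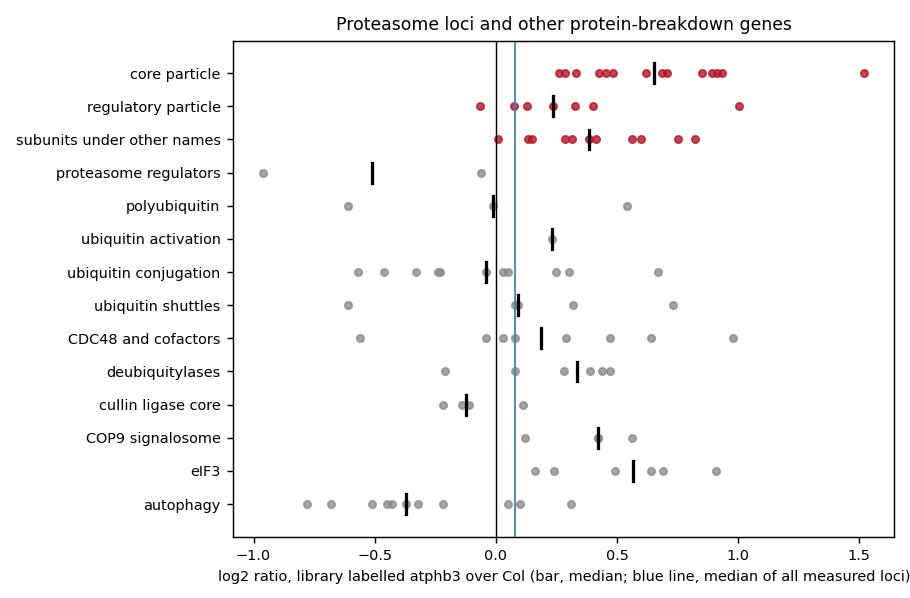
Log2 ratio, library labelled atphb3 over Col, of each measured gene of the core particle, the regulatory particle, subunits under other names and lists of related genes, with a bar at each median and a blue line at the median of all measured loci (0.08). The core median of 0.65 and the eIF3 median of 0.57 lie furthest right, the autophagy median is -0.37, and the COP9 row holds the subunits that are not members. The order of core and eIF3 depends on the filter. The 11 core loci that met the read minimum in both libraries had a median of 0.48, below that of eIF3. The measured eIF3 genes all met that minimum in both libraries.

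Markers of cell types also differed between the libraries. The 8 measured root tip markers of 10 listed exceeded Col by at least 1.5-fold in the library labelled atphb3 (3 of them measured through it alone), against 22.0% of all measured loci. They summed to 313 CPM there and 149.5 CPM in Col. The 7 measured genes of dividing meristem cells were all higher when scaled to the library total and 6 were under TMM scaling, against 54.6% and 50.7% of all measured loci. The listed genes summed to 219 CPM in the library labelled atphb3 and 165 CPM in Col, a ratio of 1.33 (1.23 to 1.43). The 8 measured leaf markers were all at least 1.5-fold lower (3 of them measured through Col alone, and so bound to be lower), against 18.4% of all measured loci. Leaf markers summed to 196 CPM in the library labelled atphb3 and 785 CPM in Col, and 1 of the 11 in the table, RBCS1B, was at 0 reads in the library labelled atphb3. Phloem markers summed to 105 CPM in the library labelled atphb3 and 408 CPM in Col, and xylem markers to 388 CPM in the library labelled atphb3 and 644 CPM in Col, with 3 of 3 and 5 of 6 measured markers lower. Their part in the proteasome ratios was not tested. In bulk RNA, fewer cells of a type and less RNA per cell cannot be told apart.

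The ratios were also set beside those of other loci of like depth. Among core and regulatory loci with a mean of 1000 or more reads, 9 of 9 were higher, against 59.8% of the 1598 loci of all kinds at that depth, and the median log2 ratio was 0.33 against 0.17. At least 1.5-fold higher was 1 of the 9 (11.1%), a smaller share than the 24.7% of all loci at that depth. From 500 to 1000 reads 3 of 4 were higher, against 54.9% of all loci, with a median of 0.58 against 0.06. From 200 to 500 reads 2 of 2 were higher, against 54.0%, with a median of 0.59 against 0.05. From 50 to 200 reads 3 of 3 were higher, against 53.6%, with a median of 0.91 against 0.07. The gap to other loci was smallest at the highest depth. There the median was 0.43 for 5 core loci and 0.28 for 4 regulatory loci, closer than the 0.65 and 0.24 of all measured loci of each particle. The part of depth in the difference between the particles was not tested.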

How the data were processed

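Total RNA was sequenced on an Illumina instrument after random priming, per the labels' protocols, with 1 library per group. Per the file headers, the authors deposited for each of 26425 transcripts a read count and an RPKM value per library, a log2 ratio, and a p-value with its false discovery rate. The authors' p-value, false discovery rate and log2 ratio rest on a single library per group, so none of them entered here. The names of aligner, counting tool and genome build are not given in the sources used here. Each deposited RPKM equalled the count over transcript length and column total, with 0.01 at a count of 0.

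Counts were summed per locus and scaled to the column total as CPM. Log2 ratios were taken after adding 0.5 reads, and fold calls used CPM without that addition. Intervals are 95% Clopper-Pearson intervals conditional on the summed reads of both libraries. Without molecular identifiers, these intervals and the limit at 0 cover counting error only. Calculations were tested on simulated counts.

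Members, lists and motifs were chosen with earlier results of these data known, and printed promoters after values had been seen. Each member is accounted for. Named in full were the 3 highest and 3 lowest ratios per particle, each gene pair, members outside both particles, and from each list up to 3 members with the largest difference. Positions are those of the deposited table. All 41 members lay inside their RefSeq span in TAIR10.1 on the same strand, as did 98.9% of 21622 loci by position. Promoter and coding sequences are RefSeq's, read from TAIR10.1. Of 3 regulators and 11 assembly factors and caps listed, PTRE1, ECM29, UMP1A, UMP1B, PBAC1 to PBAC5, NAS6 and HSM3 matched no symbol and are not reported, and NAC078 was matched through its older symbol.

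Alternatives were TMM scaling (edgeR 4.0.16), DESeq2 1.42.0 size factors, a total over nuclear loci, the authors' RPKM values, 2 added reads, the filter removed or raised to 200 reads, loci with 1 listed transcript, 2-fold, means, and intervals wholly beyond 1.5-fold. Added after seeing the data were 50 reads in both libraries, loci with 1 RefSeq transcript, sums without the most read locus, members that overlap no listed locus, and subunits under other names. R 4.3.3, Python 3.11.15, numpy 2.4.6, pandas 2.3.3, scipy 1.17.1, biopython 1.88 and matplotlib 3.10.9 were used.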

Additional observations from a re-analysis of the deposited data

How the results depend on the processing

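The 27 higher and 4 lower measured loci kept their direction under TMM scaling, median of ratios scaling and a total over nuclear loci, and the median log2 ratios of all 31 measured loci, the core and the regulatory particle stayed above 0 under each alternative. TMM scaling moved all measured loci by -0.07 and median of ratios scaling by -0.04 on the log2 scale. The summed ratio of all 41 loci was 1.25 with TMM, 1.27 with median of ratios scaling and 1.35 with the authors' RPKM, against 1.31. The core sum was 1.35 with TMM, 1.38 with median of ratios scaling, 1.46 over loci with 1 RefSeq transcript, 1.47 without its most read locus PAG1 and 1.36 without overlapping loci, against 1.42. The regulatory sum was 1.14 with TMM, 1.16 with median of ratios scaling and 1.24 with subunits under other names, against 1.19.

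The counts at least 1.5-fold apart depended on the limits. Of 31 measured members 12 passed, but 6 of 21 with a minimum of 200 reads, 2 of 31 at 2-fold and 4 of 31 with the interval wholly beyond 1.5-fold. With 50 reads in both libraries 7 of 26 passed, and with 1 RefSeq transcript 5 of 20. All of these were higher in the library labelled atphb3. Of all measured loci 22.0% were at least 1.5-fold and 9.77% at least 2-fold higher. At least 1.5-fold higher were 18.9% of all loci with 50 reads in both and 23.2% of measured loci with 1 RefSeq transcript. The members were thus below other loci at 2-fold and near them with 1 RefSeq transcript. Of 14 core loci 8 passed, but 4 of 10 with a minimum of 200 reads, 1 of 14 at 2-fold and 3 of 14 with the interval. With 50 reads in both 5 of 11 core loci passed, and with 1 RefSeq transcript 4 of 9. Of 7 regulatory loci 1 passed, but 0 of 5 with a minimum of 200 reads and 0 of 7 with the interval. With 50 reads in both 0 of 6 passed, with 1 RefSeq transcript 0 of 5, and with subunits under other names 4 of 18. Threshold and interval bear on counts alone, the mean on medians alone and the pseudocount on medians and sums, and sums had no filter to remove. No paired analysis was possible because each group had 1 library. Depth limited the loci with several RefSeq transcripts most.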
